A study of Mus musculus with 4 samples.

Results

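The Nkr-p1, CD94-NKG2 and Klrg1 receptors are a group of 9 genes, described here by their place in the genome and their levels in the immune cells of mouse fibrosarcomas. They are the Nkr-p1 genes Klrb1a, Klrb1b, Klrb1c and Klrb1f, the CD94-NKG2 genes Klrd1, Klrc1 and Klrc2, Klrk1, which encodes NKG2D, and Klrg1. They were chosen by symbol, and all 9 were among the 31053 genes of the deposited matrices. Live CD45+ cells were sorted from untreated fibrosarcomas on day 11 after implantation and profiled with droplet 3′ single-cell RNA sequencing. Of the 4 libraries, 2 came from tumours with a double knockout of the retinaldehyde dehydrogenases Raldh1 and Raldh3 (Raldh1/3 DKO) and 2 from Cas9 Control tumours. Each library pooled cells of 2 tumours, so 4 tumours stood behind each group. The labels give no strain, sex or genotype of the host mice, do not say whether a knockout line was a single clone, and do not say whether the pools came from separate experiments.

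These receptors are C-type lectin-like proteins of NK cells, which T cells and some myeloid cells can also carry. Nkr-p1 receptors bind Clec2 proteins on other cells, and their members pass on activating signals, as NKR-P1C (NK1.1) does, or inhibitory ones, as NKR-P1B does. CD94, the product of Klrd1, pairs with NKG2A from Klrc1 to give an inhibitory receptor or with NKG2C from Klrc2 to give an activating one, and both pairs read Qa-1, a class Ib MHC molecule encoded by H2-T23 in the mouse. NKG2D is an activating receptor for stress-induced proteins of the Rae-1, H60 and MULT1 families and signals through the adaptors DAP10 (Hcst) and DAP12 (Tyrobp). KLRG1 is an inhibitory receptor for cadherins and marks terminally differentiated effector lymphocytes.

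All members but Klrg1 lie together in the NK gene complex of chromosome 6. By the GRCm38 annotation, whose gene identifiers matched those of the files, these 8 span 1.07 Mb, chr6:128609227-129678973. Klrb1a lies at chr6:128609227-128623533 on the minus strand, Klrb1c at chr6:128778485-128789215 (minus), Klrb1b at chr6:128813706-128826331 (minus) and Klrb1f at chr6:129045901-129057464 (plus). Further along are Klrd1 at chr6:129591782-129598775 (plus), Klrk1 at chr6:129610323-129623864 (minus), Klrc2 at chr6:129647496-129660689 (minus) and Klrc1 at chr6:129666015-129678973 (minus). Klrg1 stands outside this group, at chr6:122270596-122282882 on the minus strand.

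The 250 bases before the RefSeq start of the 4 Nkr-p1 genes are shown because these genes fell into unlike patterns across the cells: Klrb1a, Klrb1c and Klrb1f were mainly NK transcripts, while Klrb1b was also a dendritic and macrophage transcript. The windows, from RefSeq on GRCm38.p6, are chr6:128622935-128623184 (minus) for Klrb1a, chr6:128788642-128788891 (minus) for Klrb1c, chr6:128826316-128826565 (minus) for Klrb1b and chr6:129045651-129045900 (plus) for Klrb1f. Capitals mark a match to the RUNX motif TGNGGT, searched on both strands. Klrb1a and Klrb1c each have an annotated longer transcript that starts further upstream than these windows.
Klrb1a: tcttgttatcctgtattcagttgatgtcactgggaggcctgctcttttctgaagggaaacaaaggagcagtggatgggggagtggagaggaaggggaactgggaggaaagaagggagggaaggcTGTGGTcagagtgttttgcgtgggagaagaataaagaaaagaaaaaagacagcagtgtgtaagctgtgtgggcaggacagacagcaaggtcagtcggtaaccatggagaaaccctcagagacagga
Klrb1c: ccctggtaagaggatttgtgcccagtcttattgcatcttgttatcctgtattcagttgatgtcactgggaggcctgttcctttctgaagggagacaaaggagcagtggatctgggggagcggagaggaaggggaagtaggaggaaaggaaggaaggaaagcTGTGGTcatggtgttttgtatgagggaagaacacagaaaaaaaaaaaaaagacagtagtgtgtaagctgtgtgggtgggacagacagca
Klrb1b: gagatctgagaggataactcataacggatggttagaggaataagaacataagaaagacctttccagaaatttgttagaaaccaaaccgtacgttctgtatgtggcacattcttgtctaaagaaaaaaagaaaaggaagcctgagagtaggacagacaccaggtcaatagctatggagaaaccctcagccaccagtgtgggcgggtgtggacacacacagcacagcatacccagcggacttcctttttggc
Klrb1f: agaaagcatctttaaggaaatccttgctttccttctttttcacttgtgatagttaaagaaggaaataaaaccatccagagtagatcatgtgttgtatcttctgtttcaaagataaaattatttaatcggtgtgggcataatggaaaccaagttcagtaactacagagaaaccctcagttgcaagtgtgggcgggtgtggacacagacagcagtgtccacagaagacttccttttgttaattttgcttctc
Klrb1a and Klrb1c shared 64.8% of aligned bases (188 of 290 alignment columns), and Klrb1b and Klrb1f shared 58.0% (167 of 288 columns). The other 19 pairs among the 7 members with a RefSeq promoter entry shared 43.8% to 50.7%. The RUNX motif occurred in the windows of Klrb1a, Klrb1c, Klrc1, Klrc2 (2 matches) and Klrk1, and its letters were not found in those of Klrb1b and Klrb1f. Of all 32851 promoter windows of this length, 40.1% held it, so a match is common and is a description only. The T-box motif GGTGTGA, the ETS motif GAGGAAGT and the STAT motif TTCNNNGAA, present in 3.33%, 2.44% and 7.02% of all windows, had 0 matches in these 7 members. No entry was used for Klrd1 and Klrg1.

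The libraries held 7201 and 5429 barcodes (DKO) and 9206 and 8668 barcodes (control), with 57458026 to 80032966 unique molecular identifiers (UMIs) each and medians of 6544 to 7581 UMIs per barcode. After filtering, 25880 cells were kept, and clustering without the 9 members gave 24 clusters. They included 1461 NK-like cells, 5351 T-like cells, 1180 dendritic-like cells and 14044 monocyte or macrophage-like cells. A T cell cluster led by Foxp3 stayed unnamed and was not part of the T-like class. NK-like cells made up 6.23% and 7.60% of the kept cells in DKO libraries and 4.61% and 5.00% in control libraries. T-like cells made up 28.3% and 25.6% in DKO libraries and 18.3% and 13.8% in control libraries. At least 1 UMI of Ptprc, which encodes CD45, was found in 92.8% and 91.9% of kept cells in DKO libraries and 89.9% and 91.5% in control libraries. The targeted genes could hardly be read in the kept cells. Aldh1a1 (Raldh1) had 0 and 1 UMIs in DKO libraries and 1 and 0 in control libraries. The UMI of DKO library 2 lay in a tumour or fibroblast-like cell. Over all kept cells Aldh1a3 had 10 and 24 UMIs in DKO libraries and 28 and 9 UMIs in control libraries. Aldh1a3 (Raldh3) had 0 and 0 UMIs in the 31 and 28 tumour or fibroblast-like cells of DKO libraries, against 9 and 3 UMIs in the 62 and 66 such cells of control libraries. Between 11 and 33 cell barcodes were shared by each pair of libraries.

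Levels are given as CPM, the UMIs of a gene in the cells of a type in a library per 1000000 UMIs of those cells. Of the 9 genes, 7 had their highest level among these 4 classes in NK-like cells, and Klrc1 and Klrc2 in T-like cells, but the rest of their transcripts lay in different places. NK-like cells held 72.3% of all Klrb1a UMIs of kept cells, 65.3% of those of Klrb1c and 74.1% of those of Klrb1f. T-like cells held 82.3% of the Klrc1 UMIs, 81.1% of those of Klrc2 and 58.6% of those of Klrd1. Klrb1b was split otherwise, with 54.4% of its UMIs in monocyte or macrophage-like cells, 23.5% in NK-like cells and 17.9% in dendritic-like cells. Klrk1 was spread over T-like cells (46.0%), NK-like cells (22.0%), monocyte or macrophage-like cells (17.1%) and dendritic-like cells (13.8%). Klrg1 had 38.4% of its UMIs in regulatory T-like cells, whose share of kept cells was 2.05%. These shares combine the level in a cell type with the number of its cells.

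**Figure D1:**
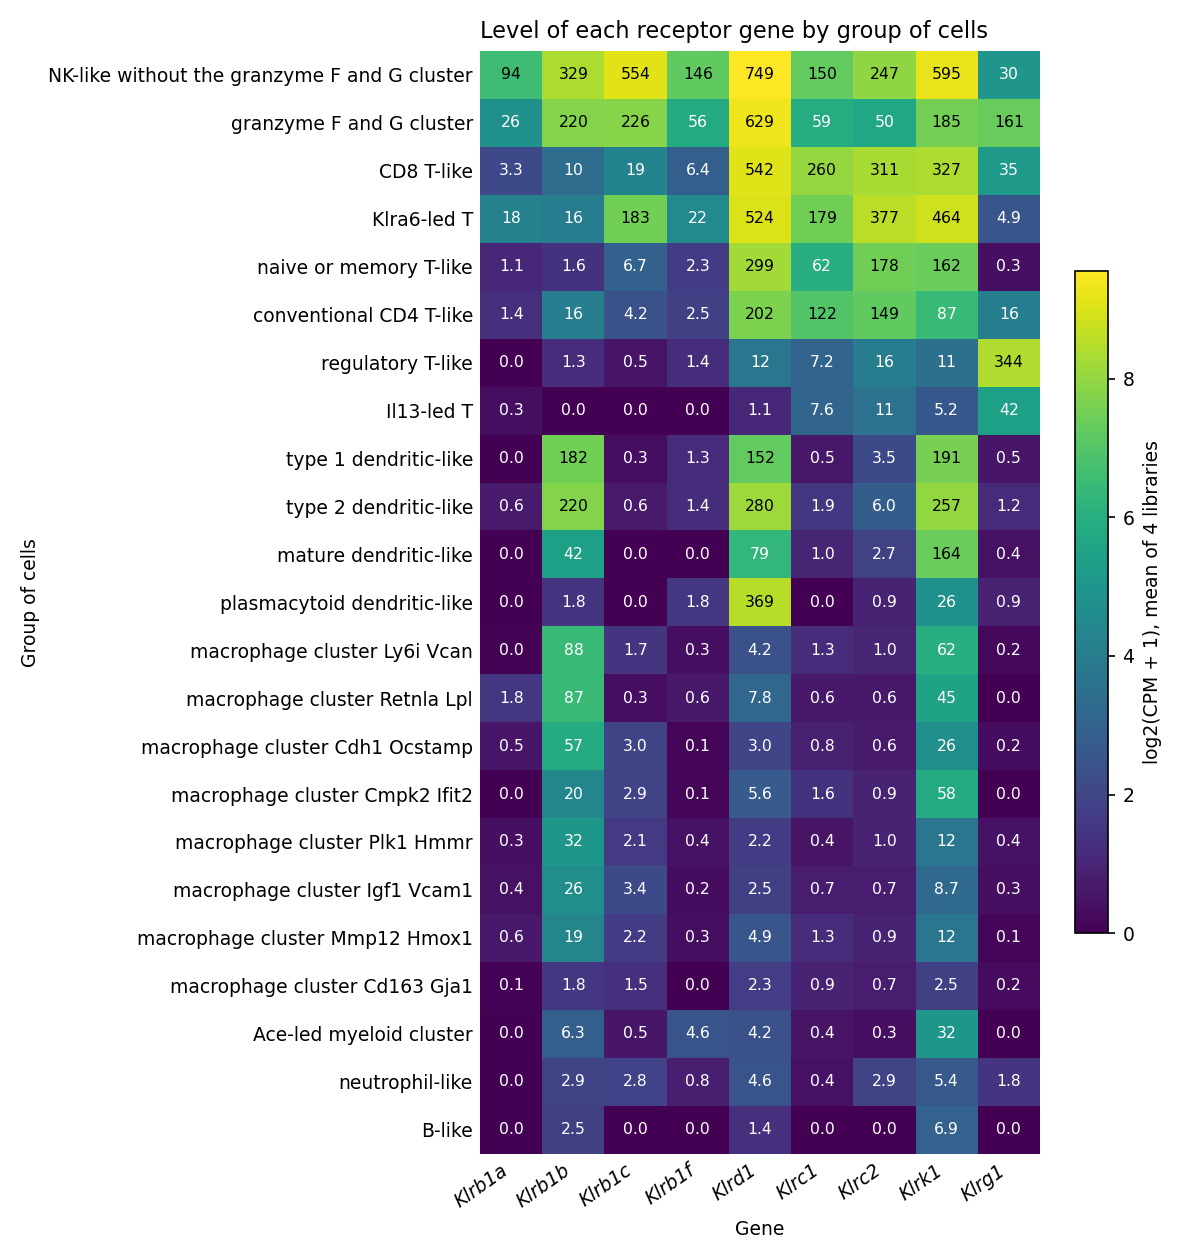
Mean level over the 4 libraries, in CPM, of the 9 receptor genes (columns) in 23 groups of cells (rows); colour is log2(CPM + 1), and the printed numbers are CPM. Read down a column, Klrb1a, Klrb1c and Klrb1f are high in the NK rows, Klrb1b also in dendritic and some macrophage rows, and Klrg1 in regulatory T-like cells.

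Among the Nkr-p1 genes, Klrb1c, the gene of NK1.1, averaged 475 ± 35.4 CPM in NK-like cells (SD, n = 4 libraries). When lymphocytes were clustered again, a cluster led by granzymes F and G (130 cells) stood apart from 1251 other NK-like cells. These sets do not add up to the class of 1461 cells. Klrb1c was at 554 ± 24.6 CPM in those other NK-like cells and 226 ± 92.0 CPM in the granzyme cluster. The next level was 183 ± 19.4 CPM in a T cluster led by Klra6, a Ly49 receptor gene, which did not overlap NK-like cells. CD8 T-like cells followed with 18.8 ± 4.92 CPM. Klrb1f, an Nkr-p1 member that binds Clec2g, averaged 125 ± 21.8 CPM in NK-like cells and 22.5 ± 5.52 CPM in Klra6-led T cells. Klrb1a, which encodes NKR-P1A, averaged 76.0 ± 6.95 CPM in NK-like cells and 17.5 ± 3.57 CPM in Klra6-led T cells. For these 3 genes the range over libraries in NK-like cells lay above that in every T, dendritic and macrophage group measured.

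Klrb1b, the inhibitory member that binds Clec2d, had a wider range. It averaged 306 ± 46.3 CPM in NK-like cells, 220 ± 29.6 CPM in type 2 dendritic-like cells and 182 ± 42.4 CPM in type 1 dendritic-like cells. The libraries of NK-like and type 2 dendritic-like cells overlapped, as did those of both dendritic subsets. Mature dendritic-like cells had 42.1 ± 12.8 CPM, below both other subsets in every library. Among macrophage clusters the level was 88.4 ± 34.1 CPM in a cluster led by Ly6i and Vcan, and under 3 CPM in each library of a cluster led by Cd163 and Gja1. T-like cells had 10.6 ± 4.19 CPM. Plasmacytoid dendritic-like cells, 13 to 34 per library, had 0 to 7.01 CPM.

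Klrd1 averaged 719 ± 54.9 CPM in NK-like cells, 542 ± 26.0 CPM in CD8 T-like cells, 524 ± 69.0 CPM in Klra6-led T cells and 202 ± 25.0 CPM in conventional CD4 T-like cells. The CD8 T-like and Klra6-led cells overlapped, and NK-like cells lay above both in every library. It was also read in cells with little of its partner genes. Plasmacytoid dendritic-like cells had 369 ± 68.3 CPM and type 2 dendritic-like cells 280 ± 94.0 CPM of Klrd1. In dendritic-like cells Klrc2 was at 3.30 to 7.03 CPM and Klrc1 at or below 3 CPM in every library. In regulatory T-like cells Klrc1 averaged 7.23 ± 2.52 CPM.

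The levels of Klrc1 and Klrc2 followed each other most closely of all member pairs, with a Pearson correlation of log2(CPM + 1) of 0.97 over the 24 clusters. The clusters share libraries and depth, and the genes share sequence: of the 60-base windows in the last 500 bases of its transcripts, Klrc1 shared 35.4% (360 of 1017) with Klrc2. A 3′ read from such a window cannot be assigned to either gene, so their counts are uncertain against each other. Klrc1, the inhibitory NKG2A gene, averaged 260.5 ± 53.7 CPM in CD8 T-like cells, 179 ± 19.97 CPM in Klra6-led T cells and 134 ± 46.7 CPM in NK-like cells, with overlapping ranges between neighbours. Klrc2, the gene of NKG2C, averaged 377 ± 8.83 CPM in Klra6-led T cells, 311 ± 54.0 CPM in CD8 T-like cells and 213 ± 63.5 CPM in NK-like cells. Both were low in the granzyme F and G cluster, at 59.0 ± 25.3 CPM for Klrc1 and 50.1 ± 20.9 CPM for Klrc2.

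Klrk1 averaged 522 ± 98.6 CPM in NK-like cells, 464.5 ± 59.6 CPM in Klra6-led T cells and 327 ± 74.9 CPM in CD8 T-like cells, and NK-like and Klra6-led cells overlapped while CD8 T-like cells lay below both in every library. Type 2, type 1 and mature dendritic-like cells had 257 ± 43.2, 191 ± 26.6 and 164 ± 11.0 CPM of Klrk1. Hcst, whose product carries the NKG2D signal, was at 420.3 to 466 CPM in NK-like cells and 23.8 to 32.2 CPM in dendritic-like cells. Klrg1 had another order. It averaged 344 ± 109 CPM in regulatory T-like cells, 161 ± 50.6 CPM in the granzyme F and G cluster, and 30.4 ± 9.29 CPM in the other NK-like cells of the second clustering. Regulatory T-like cells lay above the granzyme cluster in every library, and the granzyme cluster above those other NK-like cells.

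The share of cells with at least 1 UMI gave a like picture after each cell was thinned to 2000 UMIs, which kept 1364 of 1461 NK-like cells. Over all 4 libraries, 72.2% of NK-like cells held Klrd1, 64.2% Klrk1, 62.5% Klrb1c and 39.4% Klrb1b. The unthinned shares were 88.6%, 87.0%, 84.9% and 58.3%. Of type 2 dendritic-like cells, 37.5% held Klrk1, 34.9% Klrd1 and 29.9% Klrb1b (78.8%, 63.9% and 66.6% unthinned), and Klrb1b was held by 5.63% of monocyte or macrophage-like cells (18.97% unthinned). Klrg1 was held by 33.4% of regulatory T-like cells and 31.2% of the granzyme cluster. The background was low: of 77 B-like cells between 0% and 2.60% held a given member, and of 255 neutrophil-like cells between 0% and 1.18%. A count of 0 of 77 cells allows a share of up to 3.90%, and 0 of 255 cells 1.18%. Median depths were 3084.5 to 6908 UMIs per B-like cell and 1609 to 2093 UMIs per neutrophil-like cell, and 4142.5 to 5741 UMIs per NK-like cell. Over all 4 libraries, Klrb1b itself was held by 1.07% of CD8 T-like cells (95% Clopper-Pearson interval 0.634% to 1.68%) and by 0.784% of neutrophil-like cells (0.0951% to 2.804%). With a background interval this wide, its pooled share in CD8 T-like cells could not be told from background. That share joins DKO and control libraries and does not compare them.

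CD94 is a partner receptor, so the detection of Klrd1 and Klrc1 in the same cell was counted in thinned cells. Of 1014 CD8 T-like cells with Klrd1, 47.1% also held Klrc1 (95% Clopper-Pearson interval 44.0% to 50.3%), against 33.7% of the 671 without it. In conventional CD4 T-like cells the shares were 27.8% of 266 cells with Klrd1 and 14.8% of 806 without. In NK-like cells they were 21.9% of 985 with Klrd1 and 22.2% of 379 without. Of 216 type 2 dendritic-like cells with Klrd1, 0.926% held Klrc1 and 2.78% held Klrc2. These intervals and shares cover counting error over cells and not the spread between tumours.

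To find genes with a like pattern, log2(CPM + 1) was correlated over the 24 clusters with every gene that reached 20 CPM in a cluster. The 3 closest to Klrb1c were Ncr1 (0.96), which encodes the NK receptor NKp46, the Ly49 gene Klra7 (0.95) and Kcnc1 (0.92). Klrb1a was closest to Ncr1 (0.93), Klrb1f (0.93) and Hemgn (0.92), and Klrb1f to Hemgn (0.94), Klrb1a (0.93) and Clnk (0.91). Klrb1b had no gene as close, with Sulf2 (0.70), 1700025G04Rik (0.68) and Elmo2 (0.66), and its correlation with Klrb1c was 0.49. Klrd1 was closest to Cd7 (0.93), Ncald (0.88) and Lzts1 (0.87), Klrc1 to Klrc2 (0.97), Lcn4 (0.96) and Cd96 (0.96), and Klrc2 to Klrc1 (0.97), Gm2682 (0.97) and Nkg7 (0.96). Klrk1 was closest to Klri2 (0.86), Slamf7 (0.84) and Epsti1 (0.83), and Klrg1 to Zdhhc15 (0.92), Il2rb (0.91) and Gzmb (0.91). The clusters share their 4 libraries, so these values describe the pattern and were not tested.

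To examine whether the receptors differed in DKO tumours, UMIs were summed per library and cell type and fitted with edgeR's quasi-likelihood test, with Benjamini-Hochberg adjustment over all genes tested. A gene was called at an adjusted p below 0.05. With 2 libraries per group the smallest exact permutation p is 0.333, so no single value could be tested by permutation. In NK-like cells, whose numbers were alike (385 and 353 cells in DKO libraries, 352 and 371 in control libraries), 0 of the 9 genes were called by edgeR, none had an unadjusted p below 0.05 (0 of 9), and DESeq2 called 0. Of the 9188 genes tested, 0.0653% were called and 9.81% had an unadjusted p below 0.05.

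Klrb1b had 313 and 357 CPM in NK-like cells of DKO libraries, against 309 and 245 CPM in control libraries. The DKO libraries lay above the control libraries, though the first of each differed little. The log2 change was 0.20 ± 0.15 (SE), with an adjusted p of 0.675. Klrd1 had 656 and 712 CPM in DKO libraries, against 789 and 719 CPM in control libraries, with a log2 change of -0.22 and an adjusted p of 0.683. These were the 2 of 9 genes whose groups did not overlap, a share below the 40.8% of all genes tested. Klrb1c had 473 and 500.2 CPM in DKO libraries and 500.5 and 425 CPM in control libraries, a log2 change of -0.00. Klrk1 had 511 and 640.1 CPM in DKO libraries and 536 and 400.0 CPM in control libraries, a log2 change of 0.22. Their groups overlapped.

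The other NK-like values differed more between pools of a group than between groups. Klrc1 had 114 and 186 CPM in DKO libraries and 155 and 79.8 CPM in control libraries, and Klrc2 168 and 287 CPM in DKO libraries and 243 and 152 CPM in control libraries. The 95% interval of the Klrc1 log2 change ran between -0.75 and 1.33. Klrg1 had 62.2 and 49.0 CPM in DKO libraries and 44.8 and 92.4 CPM in control libraries. The granzyme F and G cluster of the second clustering held 34 and 15 cells in DKO libraries and 15 and 66 cells in control libraries. A link between its size and the Klrg1 values was not tested. In the other NK-like cells of that clustering Klrg1 had 25.2 and 44.2 CPM in DKO libraries and 27.8 and 24.5 CPM in control libraries. EdgeR called 0 of 9 members there (0.364% of genes), with 1 below 0.05 before adjustment (11.9% of genes) and 0 called by DESeq2. That gene was Klrb1a, at a log2 change of -0.41, and the others lay between -0.19 (Klrd1) and 0.37 (Klrg1). In the NK-like class Klrb1a and Klrb1f had log2 changes of -0.17 and 0.21.

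**Figure D2:**
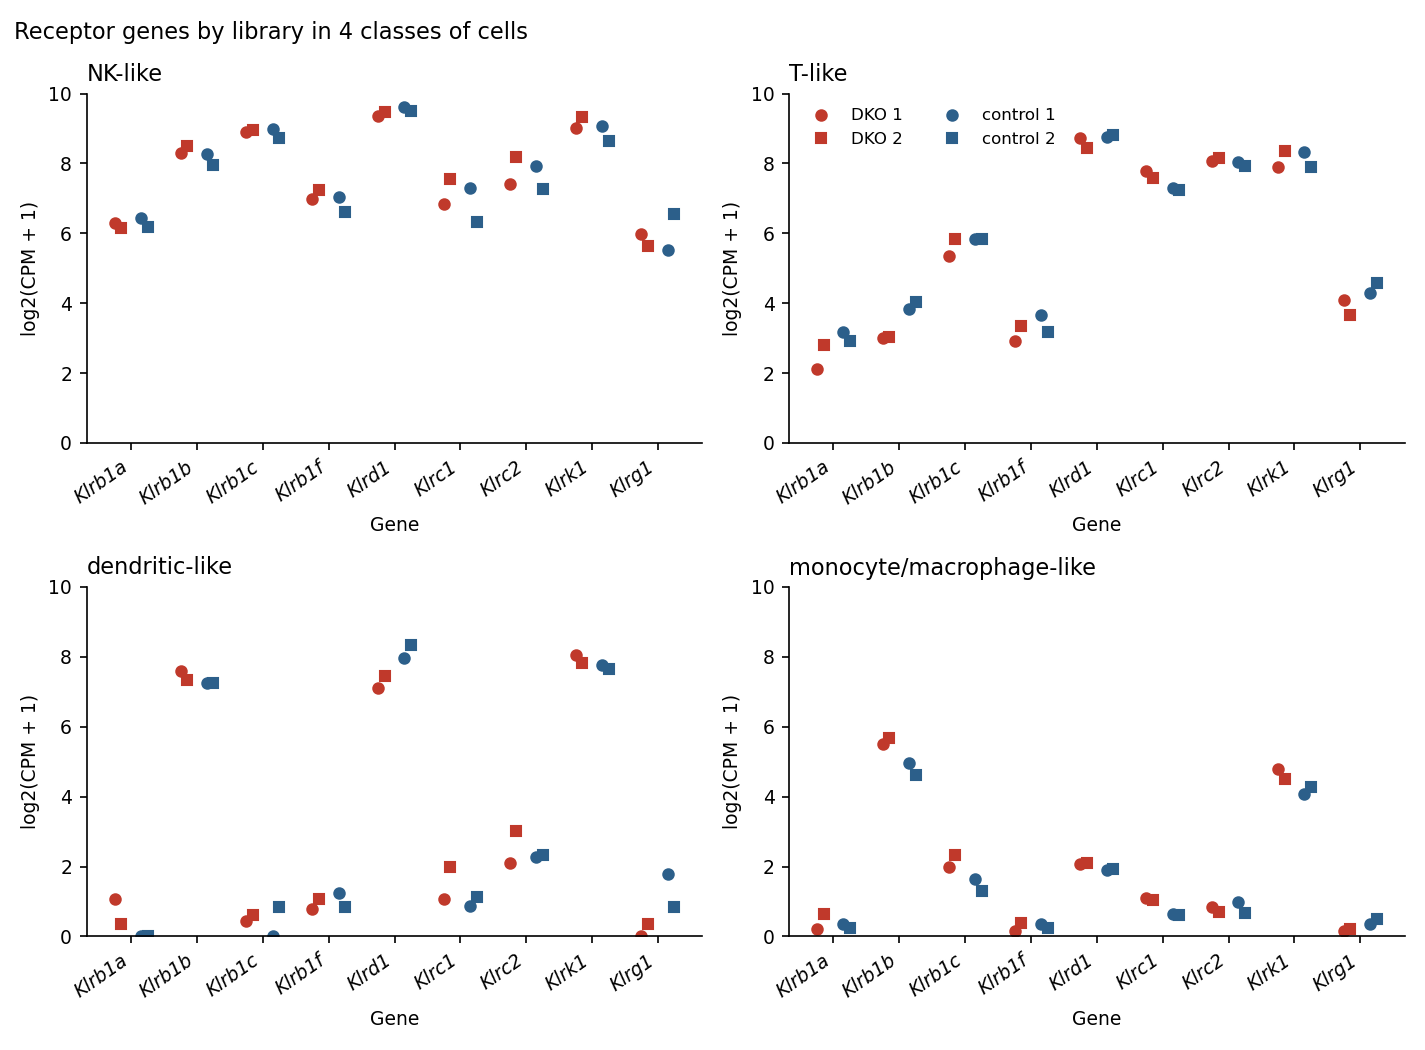
Level of each receptor gene in each library, as log2(CPM + 1), in NK-like, T-like, dendritic-like and monocyte or macrophage-like cells; Raldh1/3 DKO libraries are the left points of each pair and Cas9 Control libraries the right ones. In NK-like cells the groups overlap for 7 of 9 genes, while Klrd1 in dendritic-like cells and Klrb1b in T-like and macrophage-like cells stand apart.

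In T-like cells, 0 of the 9 genes were called by edgeR (0.0899% of the 11128 genes tested), 4 were below 0.05 without adjustment (14.4% of genes), and DESeq2 called 0. For 6 of the 9 the libraries of the groups did not overlap, against 48.7% of all genes tested. Klrb1b had 6.96 and 7.24 CPM in DKO libraries (77 and 66 UMIs), against 13.1 and 15.3 CPM in control libraries (103 and 90 UMIs). Its level was lower in both DKO libraries, with a log2 change of -1.06 ± 0.19 and an adjusted p of 0.0829. Klrc1 had 219 and 192 CPM in DKO libraries, against 156 and 151 CPM in control libraries. Both DKO libraries were higher, with a log2 change of 0.35 ± 0.12 and an adjusted p of 0.257. Klrg1 had 16.0 and 11.7 CPM in DKO libraries and 18.7 and 22.9 CPM in control libraries (log2 change -0.64, adjusted p 0.225). Klrb1a, which was lower in both DKO libraries, had a log2 change of -0.76 (adjusted p 0.294). Klrb1f, Klrd1, Klrc2, Klrk1 and Klrb1c had log2 changes of -0.42, -0.26, 0.04, -0.04 and -0.30.

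T cells were then split into subsets, since their mix differed: CD8 T-like cells numbered 769 and 286 in DKO libraries and 386 and 307 in control libraries. The subsets came from clustering the lymphocytes again, with the Foxp3-led cluster that the T-like class left out. They are therefore not a division of the T-like class alone. In CD8 T-like cells Klrb1b fell, the 1 member called of 9 tested. It had 5.74 and 2.64 CPM in DKO libraries (33 and 8 UMIs), against 15.3 and 15.4 CPM in control libraries (43 and 36 UMIs). The log2 change was -1.81 ± 0.34 (95% interval -2.51 to -1.12) with an adjusted p of 0.0071 in edgeR's quasi-likelihood test, where 1.25% of genes were called. Leaving out any library kept the call, with changes between -2.63 and -1.45. DESeq2 put the change at -1.88 and gave no adjusted p for this gene, so it made no call. The call rests on few UMIs, and the share of cells pooled over all libraries could not be told from background. Without cells holding a UMI of Ncr1, Csf1r, Adgre1 or Cd209a, Klrb1b had 12 and 5 UMIs in DKO libraries (2.45 and 2.03 CPM), against 8 and 10 UMIs in control libraries (3.58 and 5.28 CPM), lower in both DKO libraries but with too few UMIs to pass the filter. The CD8 T-like subset joined 3 subclusters by score, and 1 of them, with 1248 of the 1748 cells, had CD8 T markers among its 10 leading genes. In that subcluster alone Klrb1b had 12 and 0 UMIs in DKO libraries (3.35 and 0 CPM), against 6 and 11 UMIs in control libraries (3.81 and 8.56 CPM), again below the filter. Most of its UMIs in every library lay in the other 2 subclusters, which were led by histone and mitosis genes and by Ccl4, Ccl3 and Ifng. Klrb1a had 0.870 and 2.31 CPM in DKO libraries and 5.70 and 4.28 CPM in control libraries, from 5 to 16 UMIs, with an adjusted p of 0.0976. Of the other members, Klrc1 had a log2 change of 0.40 (adjusted p 0.136), and Klrb1c, Klrb1f, Klrd1, Klrc2, Klrk1 and Klrg1 had -0.45, -0.39, -0.14, 0.16, 0.02 and -0.41.

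Macrophage transcripts moved with these values. The list of 10 macrophage genes summed to 268 and 265 CPM in T-like cells of DKO libraries, against 486 and 524 CPM in control libraries, and 261 and 263 CPM in NK-like cells of DKO libraries, against 518 and 532 CPM in control libraries. None of the 10 was at 0. Lyz2, which encodes a lysozyme of myeloid cells, fell in T-like cells (log2 change -1.96, adjusted p 0.00217) and in NK-like cells (-2.05, 3.98e-05), and Apoe fell in both (-0.96, 0.0443, and -1.07, 0.00428), by edgeR's quasi-likelihood test. Both also fell in CD8 T-like cells (Lyz2 -1.79, adjusted p 0.000654; Apoe -0.98, 0.000512) and in naive or memory T-like cells (Lyz2 -1.51, 1.27e-05; Apoe -0.77, 0.0189). Macrophage-like cells had 44.8 and 50.1 CPM of Klrb1b in DKO libraries and 29.9 and 23.8 CPM in control libraries. In T-like cells without those holding Ncr1, Csf1r, Adgre1 or Cd209a, the Klrb1b change was -0.90 with an adjusted p of 0.221. With marked doublets kept it was -0.38 (adjusted p 0.453).

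Conventional CD4 T-like cells, 401 and 252 in DKO libraries and 250 and 216 in control libraries, had 2 called members among 6 tested (0.72% of all genes). Klrc1 rose, with 146 and 157 CPM in DKO libraries, against 102 and 82.8 CPM in control libraries. Every DKO library was above every control library, with a log2 change of 0.65 ± 0.15 and an adjusted p of 0.047. Klrg1 fell, with 11.8 and 4.23 CPM in DKO libraries (26 and 7 UMIs), against 22.8 and 24.9 CPM in control libraries (30 and 31 UMIs). Its log2 change was -1.55 ± 0.36, with an adjusted p of 0.044. Klrc2 had 157 and 199 CPM in DKO libraries and 122 and 118 CPM in control libraries (log2 change 0.49, adjusted p 0.127). Klrb1b was lower in both DKO libraries, with a log2 change of -1.22 and an adjusted p of 0.149. Klrd1 and Klrk1 had -0.19 and 0.28, and Klrb1a, Klrb1c and Klrb1f were below the filter on low counts. Both calls stood near the threshold. The call of Klrc1 was lost with a replicate block (adjusted p 0.0525), without DKO library 2 (0.127) or control library 2 (0.304), and in DESeq2 (0.138). That of Klrg1 was lost without DKO library 2 (log2 change -1.05, adjusted p 0.163) or control library 2 (-1.46, 0.132), and DESeq2, at -1.60, gave it no adjusted p.

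Naive or memory T-like cells, 71 to 150 per library, had 1 called member of 4 tested (0.719% of all genes). Klrk1 rose, with 137 and 272 CPM in DKO libraries, against 109 and 132 CPM in control libraries. The second DKO library stood above the other three. The log2 change was 0.73 ± 0.19 with an adjusted p of 0.0268, and 0.15 with an adjusted p of 0.957 without that library. The call was also lost without control library 1 (0.57, adjusted p 0.466) or control library 2 (0.82, 0.132), and DESeq2, at 0.67, gave no adjusted p. Klrc2, Klrc1 and Klrd1 had log2 changes of 0.60 (adjusted p 0.105), 0.49 and -0.05, and the Nkr-p1 genes and Klrg1 were below the filter. In regulatory T-like cells, Klrg1 had 321 and 247 CPM in DKO libraries and 307 and 500 CPM in control libraries. The groups overlapped, and the log2 change was -0.56 ± 0.21 with an adjusted p of 0.277 in edgeR's test, where 0.0151% of genes were called. Without 1 library or another it ran between -0.90 and -0.19. The other 8 members were below the filter there. In Klra6-led T cells edgeR called 0 of 9 members (0.147% of all genes), DESeq2 called 0, and 1 was below 0.05 without adjustment (10.6% of genes). That gene was Klrd1, with 457 and 483 CPM in DKO libraries, against 542 and 613 CPM in control libraries (log2 change -0.35, adjusted p 0.353). Klrg1, Klrb1a, Klrb1c and Klrc1 had -0.65, -0.27, 0.19 and 0.16 there, and Klrb1b, Klrb1f, Klrc2 and Klrk1 lay between -0.03 and 0.07.

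**Figure D3:**
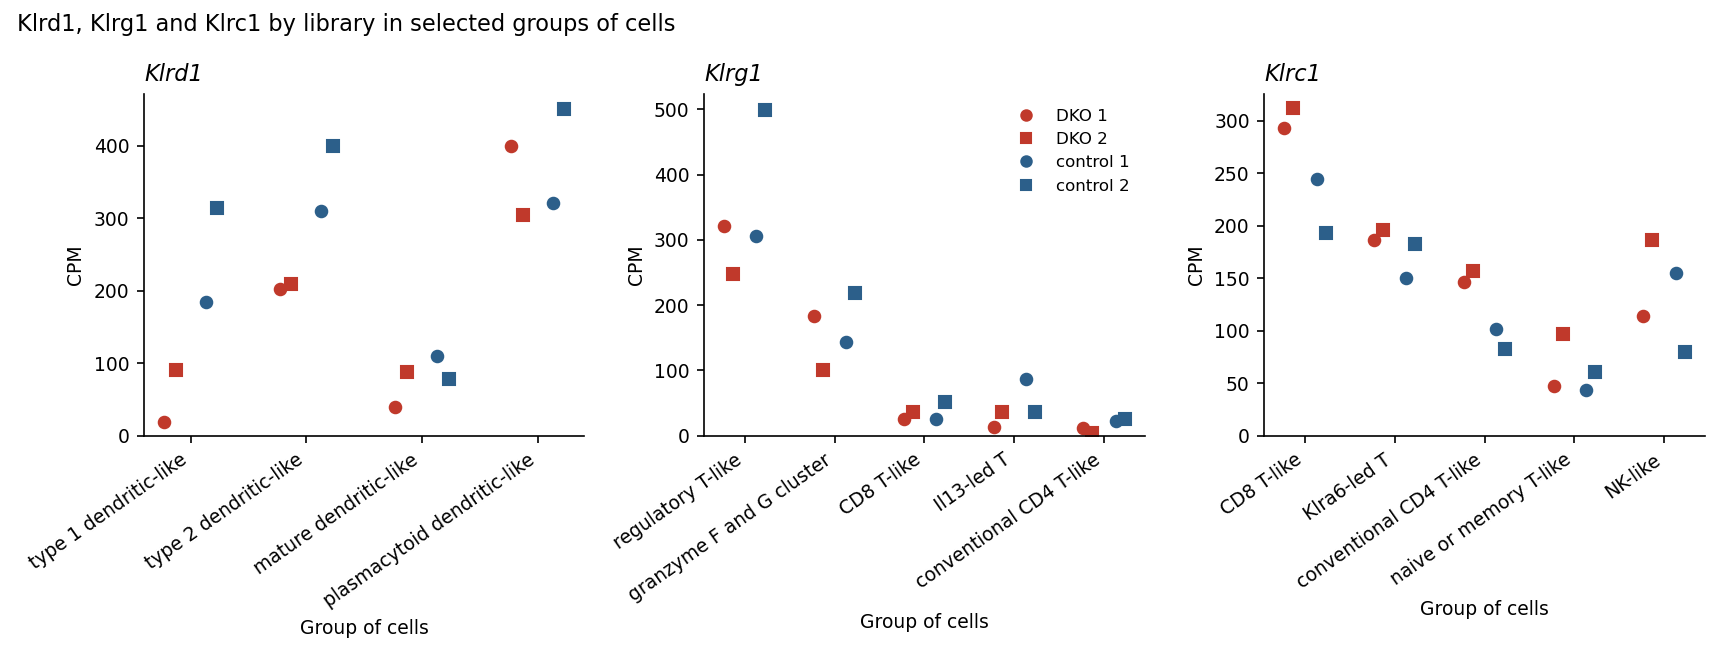
Level in CPM of Klrd1, Klrg1 and Klrc1 in each library and in selected groups of cells, with Raldh1/3 DKO points left of Cas9 Control points. Klrd1 lies lower in both DKO libraries of type 2 dendritic-like cells, and Klrc1 lies higher in both DKO libraries of conventional CD4 T-like cells.

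Klrb1b changed differently in NK-like and T-like cells. The difference between the 2 changes, NK-like minus T-like, was 1.27 ± 0.18 on the log2 scale (95% interval 0.89 to 1.66), with an adjusted p of 0.00702 in edgeR's quasi-likelihood test of the interaction. It was the only member among the 5 genes called there (0.0471% of 10615), and the other 8 members had adjusted p-values of 0.608 to 1. Leaving out any library gave 1.05 to 1.53. The difference was 1.09 with an adjusted p of 0.455 when T-like cells holding NK or myeloid transcripts were left out, and 0.61 with 0.584 when marked doublets were kept among T-like cells.

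In dendritic-like cells, 4 members passed the filter on low counts, and edgeR called 0 of them (0.0102% of the 9778 genes tested). Klrd1 alone had an unadjusted p below 0.05 (8.87% of genes did), and it was the 1 member DESeq2 called. Klrd1 had 138 and 173 CPM in DKO libraries, against 250 and 322 CPM in control libraries. Both DKO libraries were lower, and the log2 change was -0.95 ± 0.17 with an adjusted p of 0.166 in edgeR and 0.0102 in DESeq2. The groups of 3 of the 4 genes did not overlap, against 41.2% of all genes. In type 2 dendritic-like cells Klrd1 had 202 and 209 CPM in DKO libraries, against 310 and 400.0 CPM in control libraries (log2 change -0.86, adjusted p 0.119 in edgeR and 0.0409 in DESeq2). EdgeR called 0 of 3 members there (0.0349% of genes), and 1 was below 0.05 before adjustment (10.2% of genes). Klrb1b and Klrk1 had log2 changes of 0.18 and 0.22. Of the 638 type 2 dendritic-like cells, 114 lay in the 1 of 5 subclusters with a marker of the name among its 10 leading genes, and another was led by Mmp12, F10, Pilra and other genes outside the marker list. Without the subcluster led by Mmp12, Klrd1 had 250.1 and 248 CPM in DKO libraries, against 369 and 502 CPM in control libraries (-0.88, adjusted p 0.111). In type 1 dendritic-like cells, 17 to 43 per library, it had 19.2 and 90.6 CPM in DKO libraries and 184 and 314 CPM in control libraries. In mature dendritic-like cells it had 39.6 and 87.8 CPM in DKO libraries and 110 and 77.6 CPM in control libraries, and both edgeR and DESeq2 called 0 of 3 members (0.128% of genes by edgeR), with 0 below 0.05 before adjustment (8.72% of genes). The log2 changes were -0.66 for Klrd1, 0.39 for Klrb1b and 0.05 for Klrk1.

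T and NK transcripts moved in part with that value. The list of 14 T and NK genes summed to 64.7 and 105 CPM in type 2 dendritic-like cells of DKO libraries, against 173 and 252 CPM in control libraries, with Ncr1 at 0. Over all dendritic-like cells the same list did not separate the groups, with 1179 and 502 CPM in DKO libraries and 1133 and 1784 CPM in control libraries. Without cells holding T or NK transcripts, Klrd1 had 146 and 172 CPM in dendritic-like cells of DKO libraries, against 243 and 304 CPM in control libraries. Klrk1 had 265 and 225 CPM in dendritic-like cells of DKO libraries and 217 and 199 CPM in control libraries, a log2 change of 0.17. Klrb1b had 191 and 159 CPM in DKO libraries and 149.996 and 151 CPM in control libraries, a log2 change of 0.15 with an adjusted p of 0.793. Klrc2 had a log2 change of 0.36 (adjusted p 0.843), and the remaining 5 members were below the filter.

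In monocyte or macrophage-like cells edgeR called 0 of the 9 members (0.00774% of the 12928 genes tested), 5 were below 0.05 without adjustment (8.28% of genes), and DESeq2 called 1, Klrb1b, giving no adjusted p for 5. Klrb1b had 44.8 and 50.1 CPM in DKO libraries, against 29.9 and 23.8 CPM in control libraries. Both DKO libraries were higher, with means of 47.4 ± 3.73 and 26.9 ± 4.33 CPM (SD, n = 2 each), a log2 change of 0.79 ± 0.13 and an adjusted p of 0.297 in edgeR and 0.00113 in DESeq2. The groups of 6 members did not overlap, against 39.3% of all genes. Klrk1 had 26.8 and 21.6 CPM in DKO libraries and 16.0 and 18.5 CPM in control libraries (log2 change 0.46, adjusted p 0.544). Klrb1c, Klrd1 and Klrc1 stayed under 5 CPM, and Klrb1a, Klrb1f, Klrc2 and Klrg1 under 1 CPM, in every library.

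Tests within single macrophage clusters were not planned beforehand. Within these clusters, both members tested in the cluster led by Mmp12 and Hmox1 rose, where 0.955% of genes were called. Klrb1b had 24.6 and 33.3 CPM in DKO libraries (61 and 51 UMIs), against 10.6 and 8.44 CPM in control libraries (35 and 64 UMIs). Both DKO libraries lay above both control libraries, with a log2 change of 1.64 ± 0.24 and an adjusted p of 0.0179 (DESeq2 0.0034). Klrk1 had 18.95 and 17.7 CPM in DKO libraries (47 and 27 UMIs), against 5.47 and 7.26 CPM in control libraries (18 and 55 UMIs). Its groups did not overlap either, with a log2 change of 1.51 ± 0.27 and an adjusted p of 0.0344, which was 0.0537 without control library 1. The 14 T and NK genes had 469 and 269 CPM in this cluster in DKO libraries and 411 and 231 CPM in control libraries. The 14 dendritic markers had 74.6 and 73.2 CPM in DKO libraries and 70.2 and 58.0 CPM in control libraries. The cluster held 262 and 134 cells in DKO libraries and 352 and 801 cells in control libraries.

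In the other macrophage clusters edgeR called 0 of the 5 members tested in the Igf1 and Vcam1 cluster (0.323% of all genes), 0 of 4 in the Plk1 and Hmmr cluster (0.391%) and 0 of 4 in the Cdh1 and Ocstamp cluster (0.0471%). It called 0 of 3 in the Ly6i and Vcan cluster (0.04%), 0 of 3 in the Cmpk2 and Ifit2 cluster (0.529%) and 0 of 1 in the Cd163 and Gja1 cluster (0%). In the same order, 2, 2, 1, 2, 0 and 0 members had an unadjusted p below 0.05, against 8.15%, 8.01%, 8.59%, 10.9%, 9.01% and 7.44% of genes. DESeq2 called Klrb1b in the first and the fourth of these. Klrb1b had 127 and 106 CPM in the Ly6i and Vcan cluster of DKO libraries, against 69.7 and 51.3 CPM in control libraries (log2 change 0.91, adjusted p 0.136, DESeq2 0.0238). It had 25.2 and 42.6 CPM in the Igf1 and Vcam1 cluster of DKO libraries, against 17.7 and 16.9 CPM in control libraries (0.95, 0.181, DESeq2 0.0349). The change was positive in all 6 clusters where Klrb1b was tested. Macrophage-like cells without T or NK transcripts had 46.2 and 48.3 CPM of Klrb1b in DKO libraries, against 29.9 and 23.8 CPM in control libraries.

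**Figure D4:**
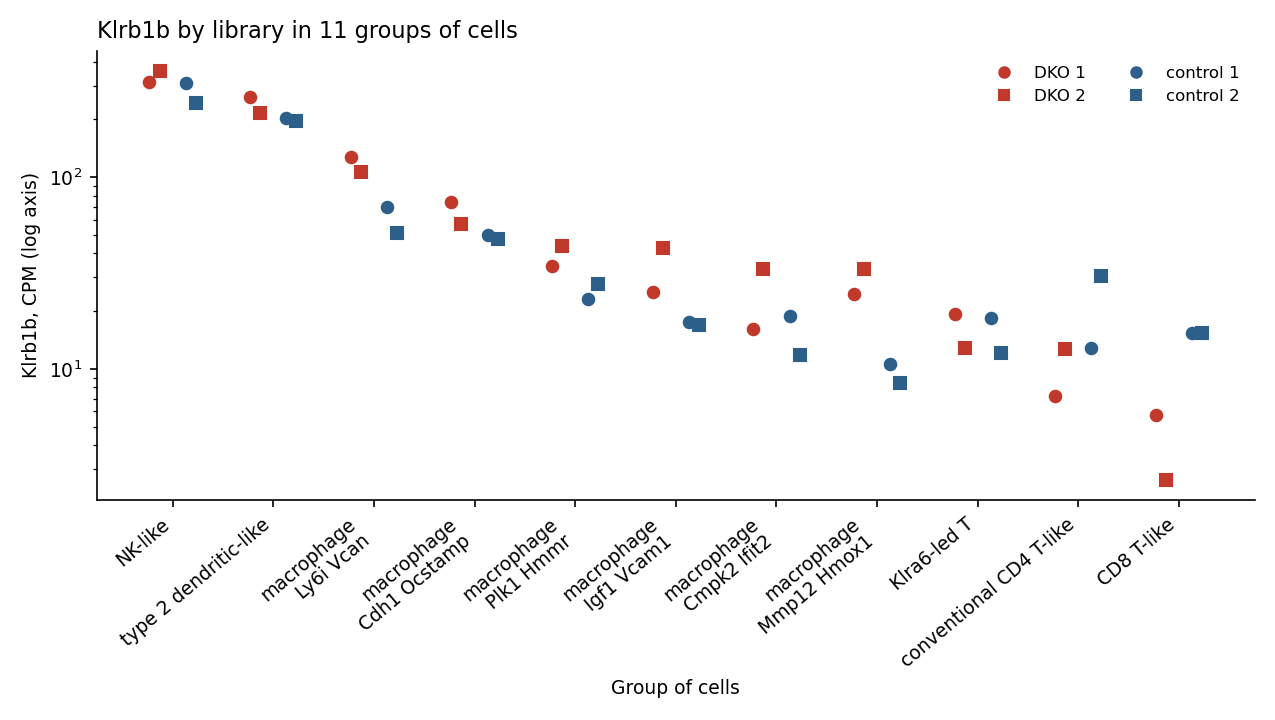
Level of Klrb1b in CPM (log axis) in 11 groups of cells and each library, with Raldh1/3 DKO points left of Cas9 Control points. DKO points lie below control points in CD8 T-like cells and above them in the macrophage clusters led by Mmp12 and Hmox1 and by Ly6i and Vcan.

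**Figure D5:**
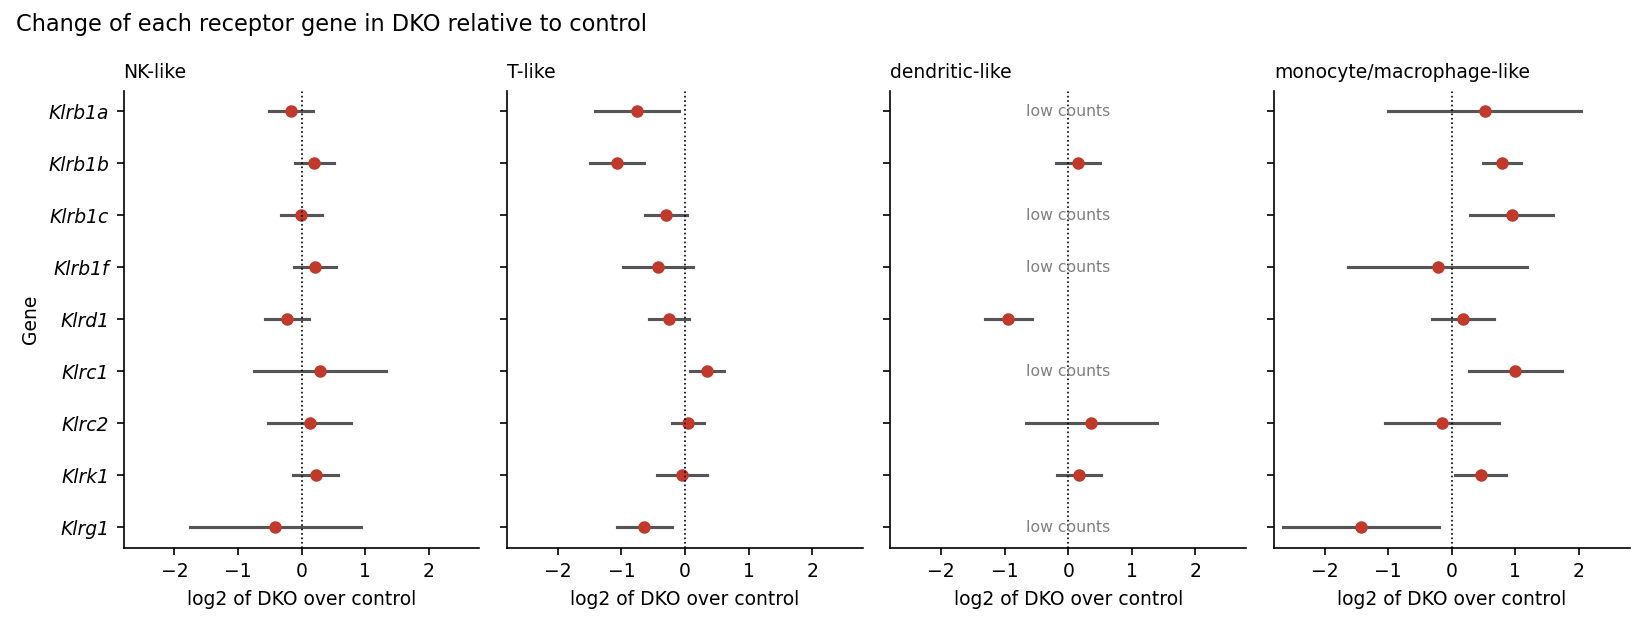
The log2 change of each receptor gene, DKO over control, with 95% intervals from edgeR's quasi-likelihood fit. The panels show NK-like, T-like, dendritic-like and monocyte or macrophage-like cells. The interval of Klrb1b lies below 0 in T-like cells and above 0 in macrophage-like cells. Genes below the filter on low counts are marked.

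The partners and ligands of the receptors were read from a list of 17 adaptor and signalling genes and a list of ligand and Qa-1 assembly genes, 20 of which were in the matrices. EdgeR called 0 genes of either list in the 4 classes, with 0 of 17, 4 of 17, 2 of 14 and 3 of 17 tested adaptor genes at an unadjusted p below 0.05 in NK-like, T-like, dendritic-like and macrophage-like cells, against 9.81%, 14.4%, 8.87% and 8.28% of all genes. Of the ligand genes, 1 of 11 was so in each of the first 3 classes and 2 of 15 in macrophage-like cells. DESeq2 called Tyrobp in T-like cells and Raet1d in macrophage-like cells. In NK-like cells 10 of 17 adaptor genes had a positive change (median 0.04, against -0.00 over all genes), and in T-like cells 7 of 17. Tyrobp, the gene of DAP12, had 1907 and 1646 CPM in NK-like cells of DKO libraries, against 2072 and 2219 CPM in control libraries (log2 change -0.35, adjusted p 0.563). In conventional CD4 T-like cells Tyrobp fell, at 19.5 and 16.3 CPM in DKO libraries, against 38.7 and 53.1 CPM in control libraries (-1.40, adjusted p 0.00572 in edgeR, none given by DESeq2). Lyz2 and Apoe fell there too (-2.02, adjusted p 4.05e-07, and -1.11, 0.00227).

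Of the ligands, H2-T23 (Qa-1) had 197 and 218 CPM in NK-like cells of DKO libraries and 191 and 176 CPM in control libraries, and 231 and 180 CPM in macrophage-like cells of DKO libraries and 146 and 210 CPM in control libraries. B2m, the light chain of class I molecules, had positive log2 changes of 0.39 in NK-like, 0.26 in T-like, 0.31 in dendritic-like and 0.38 in macrophage-like cells, none of them called. Clec2d, the ligand gene of NKR-P1B, was highest in neutrophil-like cells, with 517 and 373 CPM in DKO libraries and 405 and 368 CPM in control libraries. Cdh1, the E-cadherin gene and a KLRG1 ligand, had 131 and 195 CPM in dendritic-like cells of DKO libraries, against 101 and 69.4 CPM in control libraries (log2 change 0.85, adjusted p 0.37). Ulbp1, the NKG2D ligand gene MULT1, had 41.5 and 37.4 CPM in the few tumour or fibroblast-like cells of DKO libraries and 39.6 and 23.7 CPM in those of control libraries.

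Further lists covered 14 other NK receptors, 14 transcription factors and 13 maturation genes, and edgeR called 0 of them in the 4 classes. In the same order of classes, an unadjusted p below 0.05 was found for 2 of 13, 3 of 13, 1 of 8 and 2 of 11 tested genes of the receptors, 5 of 14, 5 of 14, 3 of 10 and 5 of 13 of the transcription factors, and 1 of 12, 2 of 13, 4 of 8 and 2 of 11 of the maturation genes, beside the shares of all genes given above. DESeq2 called Itgae in dendritic-like cells and Ikzf2, Itgam and S1pr1 in macrophage-like cells. Of the 14 transcription factors of cytotoxic and innate lymphocytes, 12 had a positive change in NK-like cells (median 0.26) and 10 in T-like cells (median 0.25), against 49.7% and 50.4% of all genes. The lean was not confined to lymphocytes. In macrophage-like cells 10 of 13 tested were positive (median 0.38, against 51.4% of all genes), and in dendritic-like cells 7 of 10 (median 0.11, against 50.4%). Prdm1, the gene of Blimp-1, had 55.6 and 80.4 CPM in NK-like cells of DKO libraries and 48.1 and 31.6 CPM in control libraries (log2 change 0.71, adjusted p 0.259). In conventional CD4 T-like cells Tbx21, the T-bet gene, rose, at 107 and 111 CPM in DKO libraries, against 65.3 and 51.5 CPM in control libraries (0.84, adjusted p 0.0175 in edgeR, none given by DESeq2). Il7r, the gene of the interleukin-7 receptor, had 30.2 and 39.4 CPM in NK-like cells of DKO libraries, against 13.4 and 15.3 CPM in control libraries (1.18, adjusted p 0.0904). Of 13 tested genes of other NK receptors, 6 had a positive change in NK-like cells and 4 in T-like cells.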

How the data were processed

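Single-cell RNA of 4 libraries was analysed, 2 Raldh1/3 DKO and 2 Cas9 Control. The deposited values were raw UMI counts per barcode and gene, per the file headers and the whole-number entries. The submitters' processing notes name the builds mm10 and GRCh38 and the tools Cell Ranger, Seurat 3.1.0 and R 3.6.0, and the file headers give software version 3.1.0. The lowest total per barcode was 500 to 504 UMIs, so the deposited matrices hold no shallower barcodes.

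Barcodes under 200 genes or under 500 UMIs, or with over 10% of UMIs from mitochondrial genes, were dropped (2799 failed), as were 1930 doublets marked by Scrublet scores, at 0.8% per 1000 barcodes, some of them among the failed barcodes. Cells were clustered with scanpy 1.11.5 (2000 variable genes without the 9 members, 30 components, 20 neighbours, Leiden resolution 1, igraph 0.11.9) and named by the best-scoring marker list with at least 3 markers detected, unless another list held more of the 10 leading genes. Many named clusters, all macrophage clusters among them, had none of the name's markers among those 10. A cluster scoring as NK or innate lymphoid was named T if at least 50% of its cells held Cd3e. This rule was set with earlier results of these data known. The clusters led by Klra6 and by Cd4 were counted as T-like through it. Some T, NK and myeloid clusters are called by their leading genes. Lymphocytes and dendritic cells were clustered again, and a subset was tested where every library held at least 50 of its cells. Macrophage clusters of the first clustering were tested under the same limit, and these tests were not planned.

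Counts were summed per library and cell type and tested with edgeR 4.0.16 (quasi-likelihood, TMM factors, filter on low counts, Benjamini-Hochberg adjustment over all genes tested, threshold 0.05) in R 4.3.3, with DESeq2 1.42.0 as an alternative. The test code was checked on simulated data. The library was the replicate, and p-values measure the spread between pools of tumours. Clopper-Pearson intervals cover counting error only. Replicate numbers were not used as pairs in the main fit, and same-numbered libraries deviated in opposite directions. Alternatives left out each library, the filter, the TMM factors, doublet removal or cells with transcripts of other types. Promoters and motifs were read with Python 3.11.15 and biopython 1.88.

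The rule was to name all 9 members in each class and tested subset. Of each other list it named genes past the threshold, and otherwise the 2 with the largest change among those with at least 20 CPM, and ligands also by level. The text gives the members by value or by their range and, of the other lists, every gene edgeR called and a selection of the rest. The members and lists were chosen with earlier results of these data known.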

Additional observations from a re-analysis of the deposited data

Results flagged for a closer look

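The change of Klrb1b differed between NK-like and T-like cells by 1.27 on the log2 scale, by the test of that difference in edgeR's quasi-likelihood fit (adjusted p 0.00702). The changes themselves were 0.20 in NK-like and -1.06 in T-like cells. The sum of 10 macrophage transcripts was lower in the DKO libraries of both classes, and the call was lost when T-like cells holding NK or myeloid transcripts were left out (1.09, adjusted p 0.455).

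Every DKO library had less Klrb1b than every control library in T-like cells (log2 change -1.06), and more in dendritic-like cells (0.15) and in monocyte or macrophage-like cells (0.79). Every DKO library had less Klrd1 than every control library in NK-like cells (-0.22), T-like cells (-0.26) and dendritic-like cells (-0.95), and more in monocyte or macrophage-like cells (0.18), where its level was 2.75 to 3.26 CPM. These differences between cell types were not tested. The changes of the same library in different cell types share their tumours.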

How the results depend on the processing

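No change of a member turned its direction past a threshold. Of 1080 values of a member's log2 change under an alternative, 45 became called and 18 lost a call. In 39 the sign turned by at least the SE of the main fit, with no call in either setting. The other 978 also kept their side of the threshold, including any whose sign turned by less than that SE. Counts of called genes moved far more. In the order NK-like, T-like, dendritic-like and macrophage-like cells, edgeR called 6, 10, 1 and 1 genes, which became 117, 456, 157 and 47 with no filter on low counts. Leaving out 1 library gave 18 to 377, 2 to 403, 0 to 600 and 1 to 268. Without TMM factors NK-like and macrophage-like cells had 13 and 2. With DESeq2 T-like, dendritic-like and macrophage-like cells had 44, 13 and 146. With marked doublets kept the counts were 18, 0, 0 and 0, and the interaction called 3 genes in place of 5. At a mitochondrial share of at most 5% T-like, dendritic-like and macrophage-like cells had 58, 0 and 2, and with the members among the variable genes dendritic-like cells had 0. NK-like cells had 19 without cells holding Cd3 transcripts and 48 without the granzyme F and G cluster of the first clustering. T-like cells had 4 with the Foxp3-led cluster and 6 without the Cd4-led cluster. Dendritic-like and macrophage-like cells had 2 each without cells holding T or NK transcripts. The cause of these shifts was not tested, beyond the fewer samples or other genes each setting uses.

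In the order CD8, conventional CD4, regulatory, naive or memory and Klra6-led T cells, NK-like cells of the second clustering without the granzyme cluster found there, and type 2 and mature dendritic-like cells, the counts were 120, 60, 1, 47, 13, 31, 3 and 8. With no filter they were 324, 207, 47, 19, 75, 115, 122 and 56. With DESeq2 they were 74, 29, 12, 12, 4, 5, 14 and 4. Leaving out 1 library gave 25 to 346, 34 to 326, 11 to 140, 8 to 105, 17 to 97, 14 to 158, 7 to 301 and 0 to 59, and 20 to 83 for the interaction. Without TMM factors conventional CD4 and Klra6-led T cells, NK-like cells without the granzyme cluster and type 2 dendritic-like cells had 109, 21, 47 and 12. Without cells holding NK or myeloid transcripts CD8 T-like cells had 29, and the interaction with such T-like cells 1. The subcluster led by CD8 T markers alone gave 13 for CD8 T-like cells, and leaving out the Mmp12-led subcluster gave 1 for type 2 dendritic-like cells, both tried after seeing the data.

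Same-numbered libraries deviated in opposite directions (Pearson correlations of -0.297 to -0.230 over genes), so the numbers gave no sign of a pairing in that order. A pairing the other way is not given by the labels and could not be told from these values. With the replicate block T-like and macrophage-like cells had 50 and 37 called genes, and CD8, regulatory and Klra6-led T cells and NK-like cells without the granzyme cluster 52, 5, 46 and 84. Klrb1b in T-like cells then had an adjusted p of 0.0402. The crossed pairing, chosen after seeing the data, gave 472, 1160, 443 and 234 in the 4 classes.

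Shares of cells depend on the depth they are thinned to, and 192 of 216 values moved at 1000 or 3000 UMIs or with no thinning. A value moved if it shifted by at least the SD between the libraries of its group. Klrb1b in CD8 T-like cells rests on 8 to 43 UMIs per library.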

Other observations

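The T cluster led by Il13 had 12.8 and 35.4 CPM of Klrg1 in DKO libraries and 86.1 and 35.5 CPM in control libraries.

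A myeloid cluster led by Ace, named for no cell type here, had 54.5 and 35.2 CPM of Klrk1 in DKO libraries and 26.2 and 13.6 CPM in control libraries. The macrophage cluster led by Retnla and Lpl, 148 cells in all, had 112 and 140.2 CPM of Klrb1b in DKO libraries and 59.7 and 34.97 CPM in control libraries. Neither was tested.

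In naive or memory T-like cells Ikzf2, which encodes the transcription factor Helios, rose with 279 and 339 CPM in DKO libraries, against 164 and 85.9 CPM in control libraries (log2 change 1.10, adjusted p 6.49e-06 in edgeR's quasi-likelihood test). In conventional CD4 T-like cells Itga2, the gene of CD49b, fell with 4.08 and 4.83 CPM in DKO libraries, against 12.9 and 18.5 CPM in control libraries (log2 change -1.87, adjusted p 0.0392, none given by DESeq2).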
